A study of Mus musculus with 18 samples.

Results

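The complement genes described here are 9 of the 21734 protein-coding genes counted in mouse bone marrow-derived macrophages. They were chosen by name: C1qa, C1qb, C1qc and C1ra of the classical pathway, C3, Cfb and Cfp of the C3 convertases, and the receptors C3ar1 and C5ar1. All 9 passed the filter on low counts and were among the 11357 genes tested.

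The series holds 18 libraries in 6 groups of 3: wild-type (WT), KO and 3′F macrophages, each resting or stimulated. KO macrophages lack miR-146a. The 3′F allele keeps the seed of miR-146a and exchanges the bases of its 3′ portion with those opposite them in the hairpin, which changes pairing with targets outside the seed. All mice were given as 6 to 7 months old and of mixed strain (129/B6), with 3 mice of each genotype. The study's mass spectrometry methods give a younger age, although it describes each replicate as split between sequencing and mass spectrometry. Marrow from femur and tibia was grown for 8 to 9 days in M-CSF at 10 ng/ml on plates not treated for tissue culture, and then received fresh medium with or without lipopolysaccharide (LPS) at 1 ng/ml for 16 h. Both alleles were made in V6.5 ES cells, their selection cassette was removed with Cre, and the lines were kept as separate colonies, with WT mice drawn from both. No library carried another allele or agent. The miRNA itself is not a protein-coding gene and has no row in the count table, so the KO label was not checked on its own target here. The labels do not state whether a resting and a stimulated library of the same number came from 1 mouse.

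Complement is a set of plasma proteins and receptors that tag and clear particles. C1q, a complex of 3 chains, recognises antibody and dying cells and activates the proteases C1r and C1s. These lead to a convertase that cleaves C3, the central component. Factor B, encoded by Cfb, is the protease of the alternative pathway convertase, and properdin, encoded by Cfp, stabilises that convertase. The fragments C3a and C5a act on cells through the receptors C3aR and C5aR1. Macrophages make many of these components themselves, and miR-146a is a known brake on signalling from Toll-like receptors, which LPS engages.

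The mature miR-146a-5p (RefSeq, GRCm38.p6, chr11:43374435-43374456, minus strand) is shown with its seed, bases 2 to 8, in capitals, because the KO removes it and the 3′F allele leaves the capitals as they are.
mmu-miR-146a-5p: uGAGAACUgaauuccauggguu

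Of the 9 complement genes, 1 had a match to that whole seed in its longest annotated 3′ UTR. C3ar1 held an 8-base match, the seed match AGTTCTC followed by an A, shown in capitals with its flanks as DNA (GRCm38, chr6:122849780-122849805, minus strand).
C3ar1 site: cctaagcagAGTTCTCAggtgaacag

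C5ar1 held 1 match to bases 2 to 7 of the miRNA only (GTTCTC), and the other 7 genes held none. Over the 11261 tested genes with an annotated 3′ UTR, 35.7% held the 6-base match and 22.2% a match of 7 or 8 bases. C3ar1, with its 8-base match, was not called in any comparison below. A match of letters is a description and not a measured target. KO mice keep miR-146b-5p, which has the same seed (GAGAACU). From its small RNA libraries the study proposes that miR-146b was higher in KO macrophages.

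The 9 genes covered a wide range of levels. In resting WT macrophages, per length (CPM, counts per 1000000 counts of a library, per kb of the exon length in the table), C1qb stood highest at 759.7 ± 144 (SD, n = 3), followed by C1qc at 369 ± 47.9, C3ar1 at 258 ± 30.4, Cfp at 247 ± 12.7, C1qa at 222 ± 74 and C5ar1 at 126 ± 26.7 CPM per kb. C3 was far lower at 4.56 ± 1.5, C1ra lower still at 0.811 ± 0.0823, and Cfb lowest at 0.207 ± 0.359 CPM per kb. In this order, neighbours were separated in every library except C3ar1 from Cfp and Cfp from C1qa, whose libraries overlapped. In KO macrophages after LPS the order of levels per length was C1qb (1300.2 ± 177), C1qc (535 ± 70.4), C1qa (346 ± 19.5), Cfp (345 ± 12.1), C3ar1 (261 ± 11.5), C5ar1 (152 ± 41.2), C3 (62.6 ± 5.36), Cfb (56.7 ± 6.43) and C1ra (8.94 ± 0.11 CPM per kb). There the libraries of C1qa and Cfp overlapped, as did those of C3 and Cfb.

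**Figure D1:**
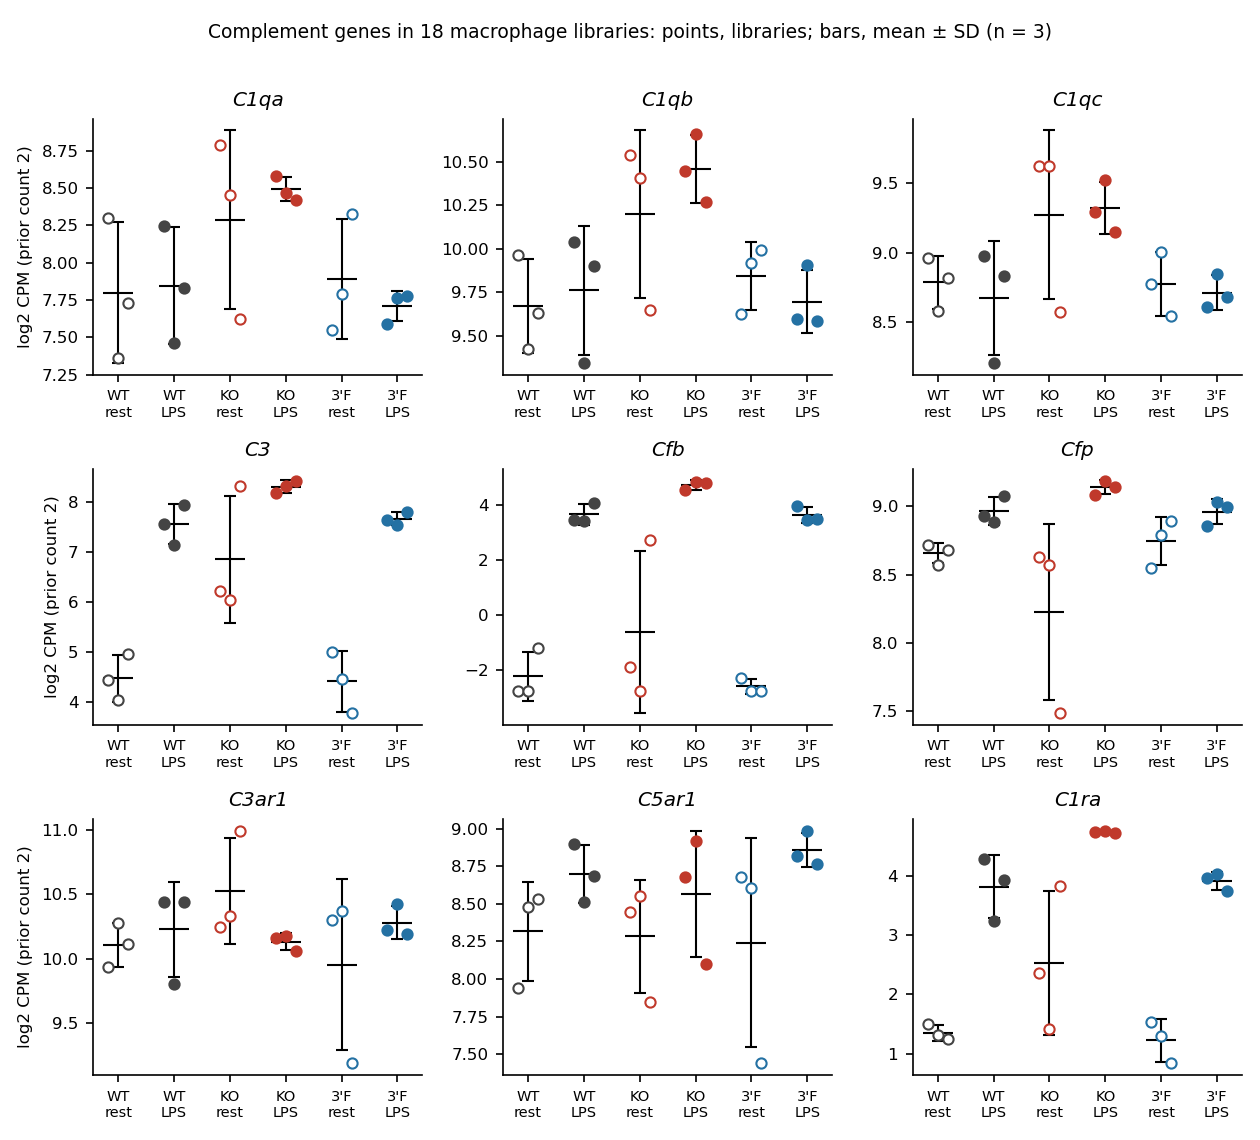
Level of each complement gene (log2 CPM, prior count 2) in the 18 libraries; open points are resting, filled points LPS-stimulated libraries, and bars give the mean ± SD of 3 libraries. C3, Cfb and C1ra step up with LPS in each genotype apart from the third resting KO library, which already sits at or near the stimulated level for C3, while the C1q chains of KO macrophages after LPS sit above those of WT and 3′F.

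The libraries held 4071084 to 19818043 counts each. The third resting 3′F library was the shallowest and had counts in the most genes (16278). The third resting KO library stood apart in another way: 12 interferon-stimulated genes, taken as a companion list, summed to 9797 CPM in it and to 595 and 447 CPM in the other two resting KO libraries, against 119 to 259 CPM in resting WT and 2411 to 12478 CPM in stimulated WT libraries. Fold changes named below that moved by over 1.5 times without it are given both ways. All 8 macrophage markers were present in every group, and the markers of B cells (0.2 to 1.2 CPM summed), T and NK cells (up to 0.9 CPM, with Cd3e at 0 in every library), mast cells (up to 0.9 CPM) and erythroid cells (up to 0.3 CPM) were at or near 0. Dendritic cell markers summed to 0.5 to 4.7 CPM and stromal markers to 0.3 to 3.5 CPM. The 4 endothelial markers summed to 5.91 to 34 CPM, with the highest sum in the third resting KO library.

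The first comparison asked which complement genes LPS moved in WT macrophages. C3, C1ra and Cfb rose, and the C1q chains, properdin and both receptors were not called. The plot of log2 fold changes shows all 9. C3 was at 21.5, 16.3 and 31.2 CPM in the 3 resting and at 189, 142 and 246 CPM in the 3 stimulated WT libraries. Every stimulated library was above every resting one, and the log2 fold change was 3.07 ± 0.50 (SE), an 8.38-fold rise (adjusted p = 0.000285, edgeR's quasi-likelihood test with Benjamini-Hochberg adjustment over all genes tested, as throughout).

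C1ra, the protease that C1q activates, was at 2.69, 2.33 and 2.22 CPM at rest and at 19.3, 9.28 and 15 CPM after LPS. Its groups did not overlap, and it rose by 2.58 ± 0.44 on the log2 scale (adjusted p = 0.000394).

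Cfb was close to silent at rest, with 0, 0 and 3 reads in the 3 WT libraries. After LPS it had 156, 156 and 231 reads, or 10.9, 10.6 and 16.9 CPM. The ratio of the pooled, depth-scaled counts was 165 with a 95% exact interval of 56.1 to 802, which covers counting error only (log2 fold change 7.20 ± 1.22, adjusted p = 0.000413). The level of Cfb is measured on a short stretch: the table lists 467 bases for it, whereas the annotation gives 2825 exon bases and 579 of these lie outside the gene Gm20547, which overlaps it on the same strand.

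Of the 9 genes, 3 were thus called, all higher, where 28.5% of all genes tested were called and 16.3% called higher. The median log2 fold change of the 9 was 0.31, beside 0.02 over all genes. The other 6 had log2 fold changes between −0.09 (C1qc) and 0.37 (C5ar1). Cfp was at 421, 381 and 410.2 CPM at rest and at 488, 472 and 541 CPM after LPS, groups that did not overlap, but its log2 fold change of 0.31 ± 0.20 was not called (adjusted p = 0.284).

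In 3′F macrophages LPS raised the same genes, read against the 3′F resting libraries. The values of C3 and C1ra were close in size to those in WT. For Cfb, with 1 resting read in 3′F and 3 in WT, the sizes cannot be compared. C3 was at 31.9, 22 and 13.6 CPM at rest and at 198, 187 and 223 CPM after LPS (log2 fold change 3.13 ± 0.50, adjusted p = 0.00023). C1ra rose by 2.65 ± 0.45 on the log2 scale (adjusted p = 0.000357), from 2.77, 2.32 and 1.64 to 15.5, 16.2 and 13.2 CPM. Cfb went from 1 read in the 3 resting libraries together to 494 reads (ratio 488, 95% exact interval 87.2 to 19328; adjusted p = 0.000399). Of the 9 genes, 3 were called, all higher, against 31.2% of all genes called and 17.2% called higher. The median of the 9 was 0.24 on the log2 scale, beside −0.01 over all genes.

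In KO macrophages 3 of the 9 were also called higher, but the set differed: Cfb, C1ra and Cfp were called and C3 was not. Of all genes, 26.9% were called and 14.3% called higher, and the median log2 fold change was 0.29 for the 9 genes and 0.02 for all. C3 was at 73.9, 65.3 and 319 CPM in the resting and at 287, 319 and 341 CPM in the stimulated KO libraries. The third resting library overlapped the stimulated ones, and the log2 fold change of 1.05 ± 0.46 was not called (adjusted p = 0.102). Without that library the C3 response was 2.18 on the log2 scale and was called (adjusted p = 3.2e-05). Over the 14 alternatives, 5 of which called it, the adjusted p of C3 ran from 7.5e-07 to 0.323.

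C1ra was at 5.01, 2.52 and 14 CPM in resting and at 26.5, 27 and 26.4 CPM in stimulated KO libraries, with a log2 fold change of 1.95 ± 0.40 (adjusted p = 0.00161). Cfb had 2, 0 and 58 reads at rest and 335, 396 and 389 reads after LPS. The pooled ratio was 16.8 (95% exact interval 13 to 22.2) and the log2 fold change 3.85 ± 0.78 (adjusted p = 0.00154). Without the third resting KO library the latter was 8.42 and that of C1ra was 2.80 (adjusted p = 3.76e-08 and 2.21e-06). Of the 60 resting KO reads of Cfb, 58 thus lay in the library with the high interferon-stimulated list.

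Cfp was at 397, 379 and 179 CPM in resting and at 543, 583 and 565 CPM in stimulated KO libraries. The groups did not overlap and Cfp rose by 0.82 ± 0.20 on the log2 scale (adjusted p = 0.0066). The third resting library was the lowest of all 18 for Cfp, and without it the rise was 0.54 (adjusted p = 0.00139). In WT, 1 of 13 alternatives called Cfp, limma-voom with quality weights (adjusted p = 0.0369). In KO, 13 of 14 alternatives kept the call of Cfp. The fit of the compared libraries alone lost it (adjusted p = 0.108) and also lost the KO call of Cfb (adjusted p = 0.0514). C3ar1 went the other way in level, from 1218, 1289 and 2039.6 CPM to 1143, 1159 and 1067 CPM, groups that did not overlap, but its log2 fold change of −0.43 ± 0.26 was not called (adjusted p = 0.243) and was −0.16 without the third resting library.

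Whether the LPS response differed between genotypes was tested as an interaction. None of the 9 genes was called for KO against WT or for 3′F against WT by edgeR, DESeq2 or limma-voom with quality weights. For Cfb DESeq2 gave no adjusted p, so its result does not cover that gene. At an unadjusted p under 0.05, edgeR gave 1 of 9 for KO, which was C3 (log2 difference of responses −2.01 ± 0.66, adjusted p = 0.684), and 0 of 9 for 3′F. Of all genes, 0.00881% were called for KO and 0% for 3′F. The C3 response was thus not shown to differ between KO and WT. Without the third resting KO library the difference was −0.89 (adjusted p = 0.832), over alternatives whose adjusted p ran from 0.25 to 1.00.

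**Figure D2:**
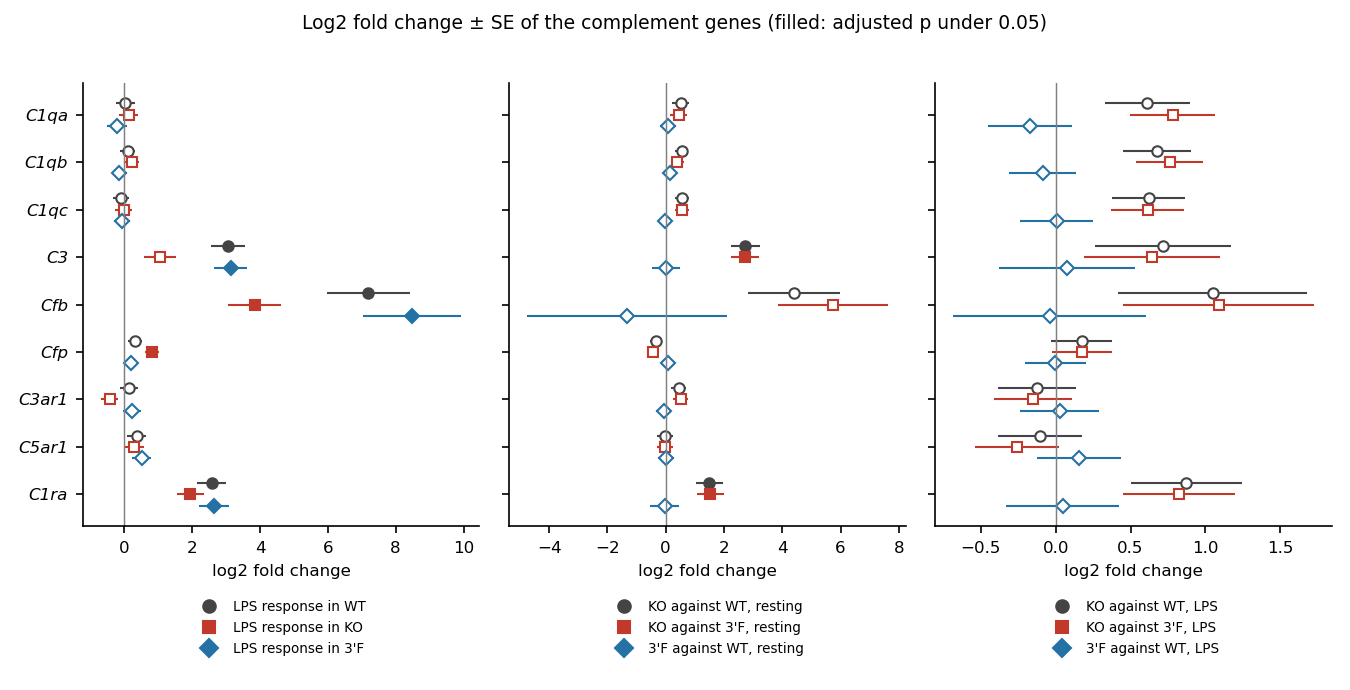
Log2 fold change ± SE of each complement gene for the LPS response in each genotype (left), the genotype differences at rest (middle) and after LPS (right); filled symbols have an adjusted p under 0.05. C3, Cfb and C1ra lead the LPS responses, C3 and C1ra the resting KO differences, and all 3′F against WT values are open and near 0 apart from Cfb at rest, which rests on 3 reads in WT and 1 in 3′F.

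At rest, the question was whether loss of miR-146a or the 3′F allele alone moved complement genes. C3 and C1ra were higher in KO than in WT macrophages. Of the 9 genes 2 were called, both higher, against 9.4% of all genes called and 5.12% called higher, with a median log2 fold change of 0.55 for the 9 and 0.02 for all genes. Every resting KO library had more C3 than every resting WT library (65.3 to 319 against 16.3 to 31.2 CPM), the only one of the 9 to separate so, where 13.7% of all genes did. The log2 fold change of C3 was 2.73 ± 0.49, a 6.63-fold difference (adjusted p = 0.00359). Without the third KO library it was 1.60 (adjusted p = 0.00386), and in a fit of the 6 compared libraries alone 2.70 with the call lost (adjusted p = 0.07); over the 13 alternatives the adjusted p ran from 2.37e-05 to 0.07.

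C1ra differed by 1.50 ± 0.45 on the log2 scale (adjusted p = 0.0465). The second KO library, at 2.52 CPM, lay within the WT range of 2.22 to 2.69 CPM, and the KO library with the high interferon-stimulated list, at 14 CPM, was highest. Without the third KO library the difference was 0.65 and was not called (adjusted p = 0.26). The call was also lost without any 1 of the 3 WT libraries (adjusted p of 0.109, 0.134 and 0.117), so that it was held by 5 of the 13 alternatives, whose adjusted p ran from 0.00508 to 0.26. The log2 fold change of Cfb was 4.40 ± 1.57 (adjusted p = 0.0927), rested on the 58 reads of the third KO library, and was −0.17 without it. The interferon-stimulated list was higher in all 3 resting KO libraries (447 to 9797 CPM) than in the 3 WT libraries (119 to 259 CPM), and its part in the C3, C1ra and Cfb values was not tested.

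The C1q chains at rest showed the reverse dependence on that library. C1qa was at 442, 351 and 197 CPM in KO and at 315, 165 and 212 CPM in WT. C1qb was at 1488, 1356 and 802 CPM in KO and at 997, 688 and 794 CPM in WT. C1qc was at 789, 787 and 381 CPM in KO and at 498, 384 and 451 CPM in WT. For each chain the first and second KO libraries were above all 3 WT libraries, whereas the third KO library lay within or below the WT range. The log2 fold changes of 0.52 ± 0.28, 0.56 ± 0.22 and 0.55 ± 0.24 were not called (adjusted p = 0.293, 0.141 and 0.175). Without the third KO library C1qb (0.78, adjusted p = 0.0259) and C1qc (0.83, adjusted p = 0.0168) were called and C1qa (0.78, adjusted p = 0.0806) was not. Over the alternatives the adjusted p ran from 0.0019 to 0.692 for C1qa, from 0.00115 to 0.379 for C1qb and from 0.00167 to 0.418 for C1qc. The 8 macrophage markers summed to 60518 to 62440.3 CPM in resting KO and to 31772 to 47835 CPM in resting WT libraries. Itgam, 1 of the 8, went the other way, at 129.9 to 166 CPM in KO and 238 to 249 CPM in WT. The 10 neutrophil markers, of which 7 passed the filter, summed to 64.7 to 120.4 CPM in KO against 39.7 to 54.5 CPM in WT. The endothelial markers overlapped, at 7.26 to 34 CPM in KO and 6.57 to 9.49 CPM in WT. In such bulk cultures, fewer cells of a type and less RNA per cell cannot be told apart.

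The receptors and properdin were not called in resting KO macrophages. C3ar1 was at 1218, 1289 and 2039.6 CPM in KO and at 979.8, 1241 and 1110.1 CPM in WT (log2 fold change 0.45 ± 0.26, adjusted p = 0.327). The third KO library was the highest of all 18 for C3ar1, and the groups overlapped. C5ar1 differed by −0.03 ± 0.28 and Cfp by −0.34 ± 0.20 on the log2 scale. Without the third KO library the difference was 0.18 for C3ar1, 0.16 for C5ar1 and −0.06 for Cfp (adjusted p = 0.759, 0.812 and 0.824).

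KO against 3′F at rest shares the KO libraries with the comparison above, so its values are given beside it and are no independent support. C3 differed by 2.72 ± 0.49 (adjusted p = 0.00489; 1.58 and adjusted p = 0.00503 without the third KO library) and C1ra by 1.53 ± 0.46 (adjusted p = 0.0387) on the log2 scale. These 2 of the 9 were called, both higher in KO, against 12.9% of all genes called and 6.79% called higher, and C3 alone separated every KO from every 3′F library, as 15.8% of all genes did. The call of C1ra was lost without the third KO library (0.67, adjusted p = 0.186) and without any 1 of the 3 3′F libraries (adjusted p of 0.053, 0.0827 and 0.0966), within a range of 0.00523 to 0.308 over the alternatives. The fit of the compared libraries alone called neither gene (adjusted p = 0.148 for C3).

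Between 3′F and WT macrophages, no complement gene was called at rest or after LPS by edgeR, DESeq2 or limma-voom with quality weights, and 0 of 9 had an unadjusted p under 0.05 in either state with edgeR. DESeq2 gave no adjusted p for Cfb and could not call it. At rest 0% of all genes were called, and after LPS 0.00881%. After LPS the log2 differences of the 9 genes ran from −0.17 (C1qa) to 0.15 (C5ar1), with a median of 0.01 beside −0.01 over all genes. At rest Cfb, with 1 read in the 3′F and 3 reads in the WT libraries, had a fitted value of −1.33 ± 3.43, and no fold is read from it. The other 8 lay between −0.07 (C3ar1) and 0.16 (C1qb). The standard errors of these differences, 0.20 to 0.50 for genes other than Cfb, set what could be seen with 3 libraries a group.

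After LPS the question was whether KO macrophages, already higher in C3 at rest, still differed. With edgeR none of the 9 genes was called for KO against WT, although 4.79% of all genes were. At an unadjusted p under 0.05 there were 4 of 9. DESeq2 called 1 (C1qb) and limma-voom with quality weights 5 (C1qb, C1qc, C3, Cfb and C1ra). For 7 of the 9 genes every stimulated KO library was above every stimulated WT library, narrowly for Cfp at 543 to 583 against 472 to 541 CPM, a pattern shared by 16.9% of all genes tested. The exceptions were C3ar1 and C5ar1, whose libraries overlapped. The median log2 difference was 0.62 for the 9 and 0.01 for all genes.

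C1qb was at 1396, 1615 and 1232 CPM in stimulated KO libraries, at 1050.1, 650.1 and 957 CPM in WT and at 776, 958 and 769 CPM in 3′F. KO libraries were above all others. The log2 difference was 0.68 ± 0.22 against WT (adjusted p = 0.0977) and 0.76 ± 0.22 against 3′F (adjusted p = 0.0721). Over the alternatives the adjusted p ran from 0.0208 to 0.417 and from 0.00256 to 0.292.

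C1qa, at 383, 355 and 343 CPM in KO, 304, 176 and 227 CPM in WT and 193, 217 and 219 CPM in 3′F, differed by 0.61 ± 0.28 and 0.78 ± 0.28 (adjusted p = 0.267 and 0.15). C1qc, at 626, 735 and 569 CPM in KO, 504, 296 and 456 CPM in WT and 389.9, 462 and 409.8 CPM in 3′F, differed by 0.62 ± 0.24 and 0.61 ± 0.24 (adjusted p = 0.169 and 0.189). All 3 chains thus ranked KO above the other genotypes without passing the adjusted threshold.

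In stimulated KO libraries the 8 macrophage markers also had a higher sum, at 71189 to 87899.8 CPM. The sum was 45543 to 59936 CPM in WT and 50475 to 60404 CPM in 3′F. Itgam, among the 8, went the other way, at 214 to 223 CPM in KO and 270 to 368 CPM in WT. In 3′F Itgam was at 313 to 370 CPM. The sum does not show how each of the other macrophage markers moved. The neutrophil markers summed to 62.1 to 96.6 CPM in KO against 47.9 to 65.9 CPM in WT and 43.5 to 55 CPM in 3′F. The endothelial markers summed to 22.8 to 26.1 CPM in KO, 7.37 to 25.6 CPM in WT and 10.1 to 16.3 CPM in 3′F. The part of these markers in the values of the complement genes, at rest and after LPS, was not tested.

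Of the genes that LPS raised, C3 was at 287 to 341 CPM in stimulated KO, 142 to 246 CPM in WT and 187 to 223 CPM in 3′F libraries (log2 difference to WT 0.72 ± 0.46, adjusted p = 0.461). C1ra was at 26.4 to 27 CPM in KO and at 9.28 to 19.3 CPM in WT (0.87 ± 0.37, adjusted p = 0.219). Cfb was at 23.1 to 28.7 CPM in KO and at 10.6 to 16.9 CPM in WT (1.05 ± 0.63, adjusted p = 0.431). In stimulated WT the lowest value of each of these genes lay in the second library, narrowly for Cfb (10.6 against 10.9 CPM in the first). The same library was also the lowest for the rest of the 9 genes, such as C1qb at 650 CPM. There the interferon-stimulated list summed to 2411 CPM, against 5493 and 12478 CPM in the other stimulated WT libraries. It summed to 8247 to 12168 CPM in stimulated KO, and its part in these values was not tested. KO against 3′F after LPS, which shares the KO libraries, gave 0 of 9 called with edgeR against 3.88% of all genes, 4 of 9 at an unadjusted p under 0.05, 1 with DESeq2 and 5 with limma-voom with quality weights. The fit of the 6 compared libraries alone called 6 of the 9. For 7 of the 9, every KO library was above every 3′F library, as for 19.4% of all genes, and C3ar1 was lower in every KO library, at 1067 to 1159 against 1172 to 1374 CPM (log2 difference −0.15 ± 0.26, adjusted p = 0.848).

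The receptors were not called in either state or genotype. C3ar1 was at 893 to 1392 CPM in the stimulated WT, 1067 to 1159 CPM in the stimulated KO and 1172 to 1374 CPM in the stimulated 3′F libraries. C5ar1 was at 245, 356 and 371 CPM in resting and 477, 365 and 411 CPM in stimulated WT, 349, 375 and 230.5 CPM in resting and 409, 484 and 275 CPM in stimulated KO, and 409, 390.2 and 173 CPM in resting and 452, 508 and 436 CPM in stimulated 3′F libraries. Neither receptor was called in any of the 11 comparisons. The lowest value of each lay in the third resting 3′F library, the shallowest, at 584 CPM for C3ar1 and 173 CPM for C5ar1.

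The genes fell into sets by their pattern over the 18 libraries. Pearson correlations of log2 CPM are given as a description: the libraries form resting and stimulated groups and share genotypes. C1qa and C1qb were at r = 0.93, C1qb and C1qc at 0.92 and C1qa and C1qc at 0.81, and these were 0.88, 0.89 and 0.68 after each group's mean was taken out. C3 and C1ra were at 0.96, C1ra and Cfb at 0.97 and C3 and Cfb at 0.93 (0.83, 0.81 and 0.91 within groups). For each of these genes the third resting KO library was the highest of its group, at 319 (C3), 14 (C1ra) and 6.51 CPM (Cfb). How far the within-group values rest on that library was not tested. Between the C1q chains and C3, C1ra and Cfb, values over the 18 libraries were low, such as 0.24 for C1qb with C3. Within groups the same pairs were negative, from −0.31 (C1qb with C1ra) to −0.66 (C1qc with Cfb). Within groups Cfp ran against Cfb, at −0.87, and with C1qb, at 0.78, and the third resting KO library had the lowest Cfp of all 18.

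**Figure D3:**
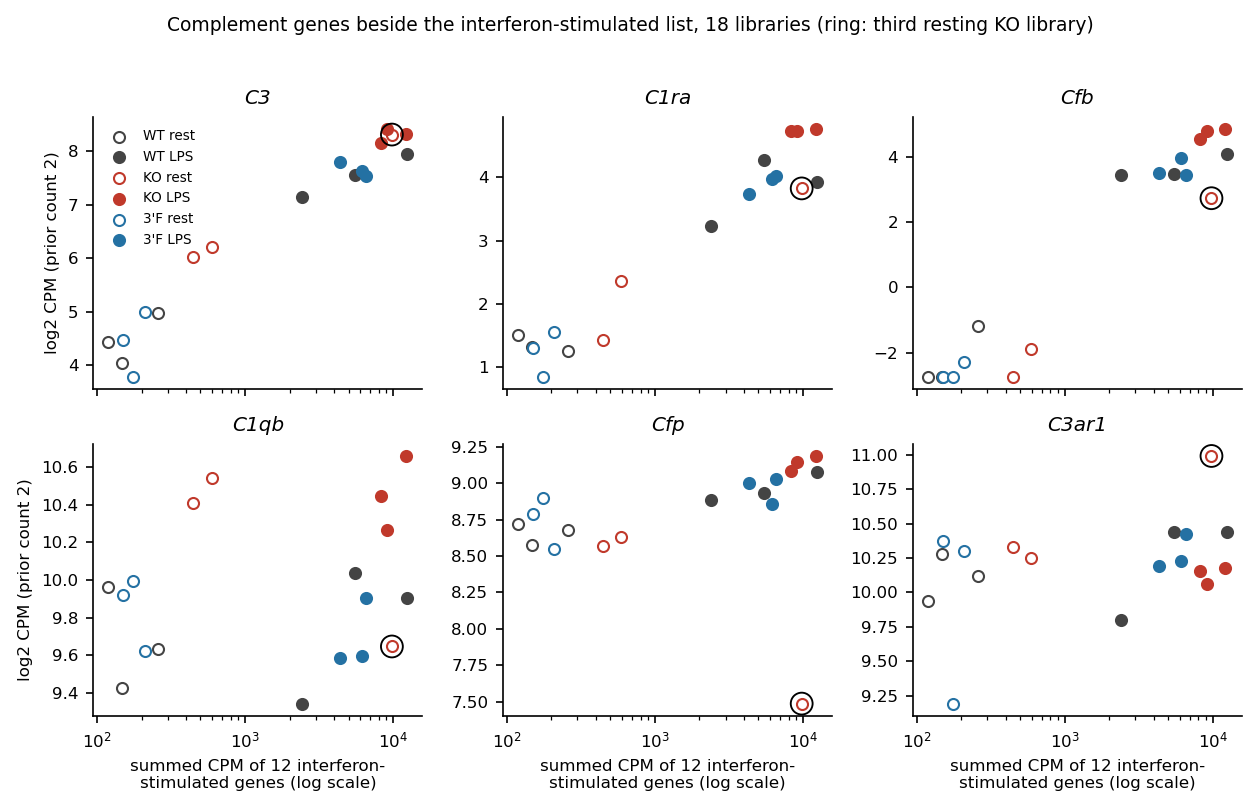
Level of 6 complement genes (log2 CPM) in the 18 libraries against the summed CPM of 12 interferon-stimulated genes (log axis); open points are resting and filled points stimulated, and a ring marks the third resting KO library. For C3 that library lies among the stimulated KO libraries, and for C1ra and Cfb between the other resting and the stimulated KO libraries. It has the lowest Cfp and the highest C3ar1 of all 18.

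The C1q chains lie side by side. C1qb (chr4:136880129-136886187), C1qc (chr4:136889804-136893065) and C1qa (chr4:136895917-136898803) all lie on the minus strand of GRCm38 and span 18675 bases, with 3616 and 2851 bases between them. Per length, C1qb was 3.02 to 4.35 times C1qa over the 18 libraries (median 3.64), and C1qc 1.01 to 2.02 times C1qa, the lowest value being in the third resting 3′F library, without which it was 1.37. The other genes are spread over the genome: C3ar1 (chr6:122847138-122856161, minus) and C1ra (chr6:124512405-124523443, plus), C5ar1 (chr7:16246743-16259540, minus), Cfb (chr17:34856374-34862518, minus), C3 (chr17:57203970-57228136, minus) and Cfp (chrX:20925454-20931555, minus).

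By the highest Pearson r over the 18 libraries among 10144 other genes, C3 was most like Oasl2 (0.989), Gbp7 (0.987) and Rnf213 (0.987), C1ra like Psme1 (0.987), Eif2ak2 (0.986) and Cmtr1 (0.985), and Cfb like Pnp2 (0.989), Bst1 (0.987) and Cd300e (0.986). C1qa was most like C1qb (0.93), Herc4 (0.844) and Exoc3 (0.838), C1qb like C1qa, C1qc (0.917) and Herc4 (0.904), and C1qc like Stab1 (0.959), C1qb and Samd1 (0.888). Cfp was most like Srrt (0.944), Pign (0.921) and Nxpe5 (0.891). Among the genes most like C3ar1 were Celf2 (0.900) and Ppp3ca (0.890), and among those most like C5ar1 were Srebf2 (0.903) and H13 (0.895). The summed interferon-stimulated list correlated at 0.977 with C3, 0.967 with C1ra and 0.965 with Cfb, and at 0.05 to 0.37 with the other 6 genes.

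Promoters (RefSeq, GRCm38.p6, 250 bases before to 50 after the start site) were found for 7 of the 9 genes; C1qa and Cfb were not in the set. Those of C3 and C1ra are shown because these genes rose with LPS and were called in resting KO macrophages, and those of C1qb and C1qc because these genes moved together with neither. Capitals mark matches, on either strand, to letters searched for 6 factors: GGGANNNNCC (NF-kB, in 20.7% of 32851 promoters of this length), GAAANNGAAA (interferon response element, 3.44%), TTCNNNGAA (interferon gamma activated site, 8.3%), TTGCNNAA (C/EBP, 10.8%), GAGGAA (PU.1, 28.3%) and TGANTCA (AP-1, 7.81%).
C3 promoter, chr17:57228087-57228386, minus strand: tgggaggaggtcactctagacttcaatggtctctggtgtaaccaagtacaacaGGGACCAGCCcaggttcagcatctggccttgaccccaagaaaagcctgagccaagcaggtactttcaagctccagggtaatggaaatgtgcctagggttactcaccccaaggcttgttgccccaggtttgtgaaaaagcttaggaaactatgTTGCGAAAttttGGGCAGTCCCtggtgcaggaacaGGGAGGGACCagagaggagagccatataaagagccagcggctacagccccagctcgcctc
C1ra promoter, chr6:124512371-124512670, plus strand: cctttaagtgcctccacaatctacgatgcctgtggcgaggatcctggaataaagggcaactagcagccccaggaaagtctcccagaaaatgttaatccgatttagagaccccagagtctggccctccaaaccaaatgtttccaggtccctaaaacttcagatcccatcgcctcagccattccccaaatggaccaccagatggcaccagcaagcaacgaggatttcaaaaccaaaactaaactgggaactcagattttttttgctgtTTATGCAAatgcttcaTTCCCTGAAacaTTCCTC
C1qb promoter, chr4:136886151-136886450, minus strand: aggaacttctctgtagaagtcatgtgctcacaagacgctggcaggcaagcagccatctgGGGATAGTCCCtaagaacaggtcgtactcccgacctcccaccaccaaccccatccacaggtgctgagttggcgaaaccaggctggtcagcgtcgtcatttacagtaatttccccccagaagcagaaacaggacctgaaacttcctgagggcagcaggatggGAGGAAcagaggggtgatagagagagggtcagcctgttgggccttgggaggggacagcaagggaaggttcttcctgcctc
C1qc promoter, chr4:136892865-136893164, minus strand: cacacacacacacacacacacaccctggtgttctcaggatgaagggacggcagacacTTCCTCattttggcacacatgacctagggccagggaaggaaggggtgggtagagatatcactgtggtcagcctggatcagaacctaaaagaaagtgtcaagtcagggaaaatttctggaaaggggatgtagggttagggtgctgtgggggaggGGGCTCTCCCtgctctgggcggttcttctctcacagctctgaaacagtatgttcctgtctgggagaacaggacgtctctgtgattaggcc

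The C3 window held 3 NF-kB matches, the last ending at the base before the start site, and 1 C/EBP match. The C1ra window held 1 interferon gamma activated site match, 1 C/EBP match and 1 PU.1 match, all downstream of the start site. The C1qb window held an NF-kB match that reads on both strands, shifted by 1 base, and a PU.1 match, and the C1qc window 1 of each. The matches are letters in these windows, and nothing was measured there.

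Around these 9, a list of 59 complement genes by role placed them in the pathway. Of the 59, 58 had a row in the table and 27, the 9 included, passed the filter. The plot of the list by role shows them. After LPS in WT, 8 of the 27 were called higher and 1 lower, with a median log2 fold change of 0.32 beside 0.02 over all genes. Of all genes tested, 28.5% were called and 16.3% called higher. Of the 18 that are not among the 9, 5 were called higher and 1 lower. Among proteases and convertase parts 5 of 8 were called higher, with a median of 2.46, while the 5 recognition genes had a median of −0.09. Both roles include genes of the 9. Without those, 2 of 4 proteases and convertase parts were called higher (median 1.86), and 0 of 2 recognition genes (median −0.35).

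**Figure D4:**
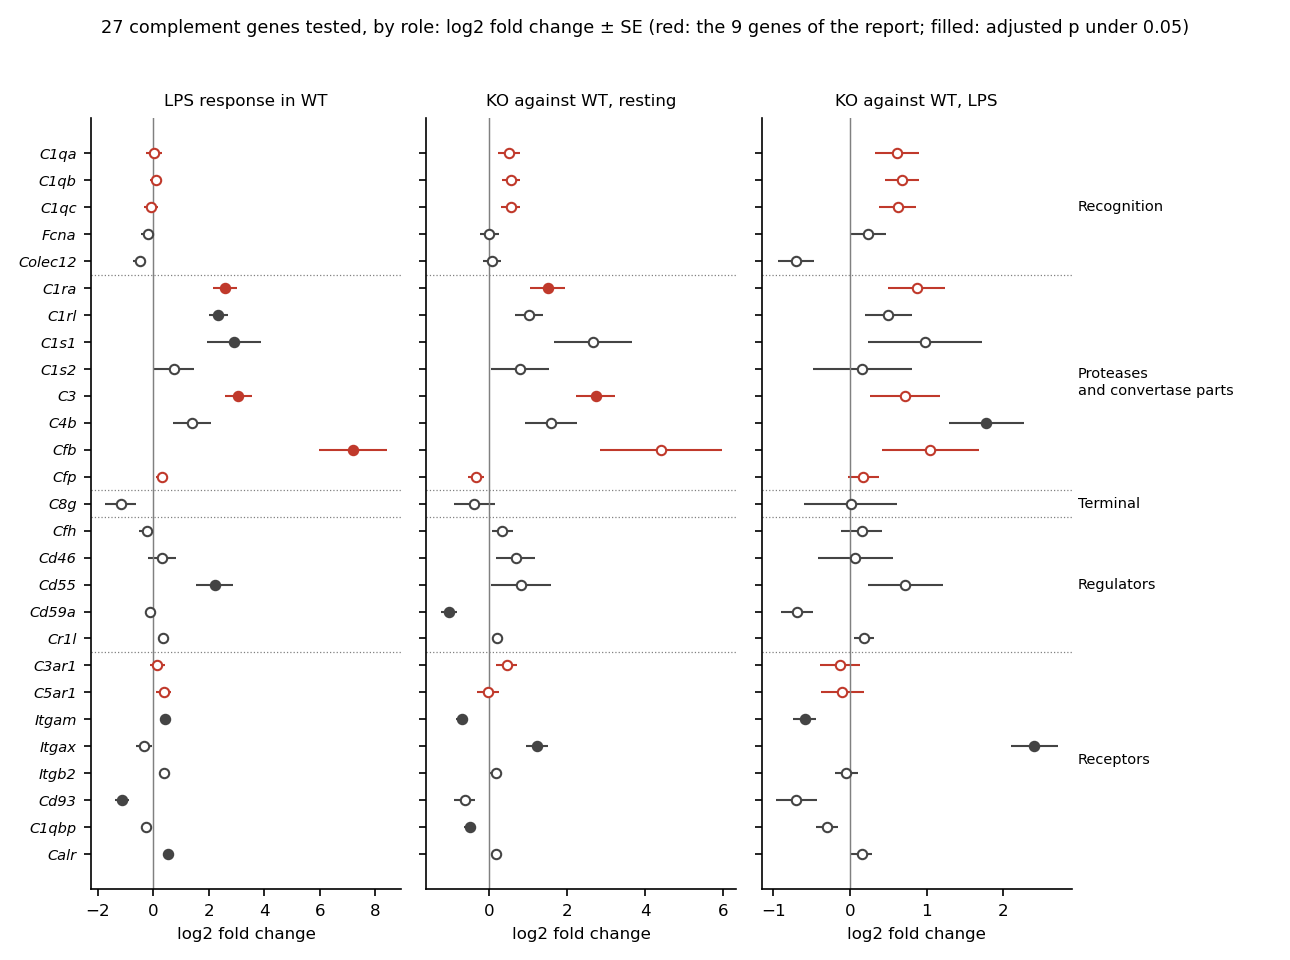
Log2 fold change ± SE of the 27 complement genes tested, by role, for the LPS response in WT and for KO against WT at rest and after LPS; red marks the 9 genes and filled points an adjusted p under 0.05. Proteases and convertase parts hold the largest LPS responses, and Itgax the largest called KO difference after LPS.

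C1rl, a relative of C1r, rose in WT, with 2.8 to 3.88 CPM at rest and 14.6 to 20.6 CPM after LPS (log2 fold change 2.34 ± 0.35, adjusted p = 0.000124). C1s1, the protease that C1r activates, rose by 2.92 ± 0.97 (adjusted p = 0.0336), with 0.394 to 0.678 CPM at rest and 3.48 to 5.23 CPM after LPS, and the call was lost without 5 of the 6 WT libraries in turn. Cd55, which speeds the decay of convertases, rose by 2.21 ± 0.66 (adjusted p = 0.0193) with at most 0.483 CPM at rest and 33 reads in any library, a call lost without 4 of the 6 libraries in turn. Calr, a chaperone that also binds C1q, rose by 0.52 ± 0.13 (adjusted p = 0.00834). Cd93, once described as a C1q receptor, fell by 1.13 on the log2 scale, with 1101 to 1228 CPM at rest and 484 to 590.3 CPM after LPS (SE 0.27, adjusted p = 0.00504).

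In resting KO against WT macrophages, 3 of the 27 were called higher and 3 lower, with a median of 0.45 beside 0.02 over all genes. Of all genes tested, 9.4% were called and 5.12% called higher. Besides C3 and C1ra the higher one was Itgax, the alpha chain of complement receptor 4, at 78.3 to 154 against 39.2 to 59.5 CPM (log2 difference 1.23 ± 0.29, adjusted p = 0.0151), a call that 9 of the 13 alternatives held. Cd59a, an inhibitor of the membrane attack complex, was lower, at 3.14 to 4.88 against 8.03 to 8.73 CPM (−1.03 ± 0.21, adjusted p = 0.0065). Itgam, the alpha chain of complement receptor 3, was lower, at 129.9 to 166 against 238 to 249 CPM (−0.71 ± 0.15, adjusted p = 0.0082); its row covers 1186 bases and the gene has a second row. C1qbp, a mitochondrial protein that binds C1q, was lower by 0.50 (SE 0.15, adjusted p = 0.0435), a call that 4 of the 13 alternatives held. Without the third KO library Itgax (1.43), Cd59a (−1.03) and Itgam (−0.61) stayed called (adjusted p = 0.00826, 0.0158 and 0.0279).

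After LPS, 2 of the 27 were called higher in KO than in WT and 1 lower, where 4.79% of all genes tested were called. The median was 0.17 beside 0.01 over all genes. Itgax was at 164 to 226 CPM in KO and at 36.4 to 40.7 CPM in WT (log2 difference 2.40 ± 0.30, adjusted p = 0.000301). C4b, which forms the classical convertase, was at 1.43 to 2.27 against 0.205 to 0.733 CPM (1.78 ± 0.49, adjusted p = 0.0494), a call that was lost without any 1 of the 6 libraries and with DESeq2. Itgam was lower, at 214 to 223 against 270 to 368 CPM (−0.59 ± 0.15, adjusted p = 0.0315), also lost without 5 of the 6 libraries in turn. For Itgax the difference held without each library.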

How the data were processed

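RNA was measured in 18 libraries of bone marrow-derived macrophages. Per the labels and the study's methods, the authors made directional libraries from rRNA-depleted total RNA, trimmed reads with cutadapt 1.8.3, removed rDNA reads and aligned the rest to mm10 with HISAT2 2.1.0, and counted them with featureCounts 1.5.3 on the Gencode protein-coding genes. The deposited values are raw counts per gene, not normalized. The 9 genes, the lists and the comparisons were chosen with earlier results of these data known.

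Counts were fitted in edgeR 4.0.16 (R 4.3.3) with TMM scaling, filterByExpr and 1 coefficient for each of the 6 groups; the quasi-likelihood test was two-sided, with Benjamini-Hochberg adjustment over 11357 genes and a threshold of 0.05. The standard error is the log2 fold change divided by the square root of F. CPM used TMM-scaled library sizes, and log2 CPM a prior count of 2. Depth was 4071084 to 19818043 counts a library. Replicate libraries differed by far more than sampling noise (chi-square per degree of freedom 6.95 to 109). The labels give 3 mice a genotype, so p-values measure the spread between these cultures. Named genes beyond the 9 were, from the complement list and for the LPS response in WT and both KO against WT comparisons, up to 4 called higher and 4 lower by size, and the 3 genes with the highest correlation with each of the 9 among genes with an average log2 CPM of at least 1. Some of the latter are not reported here. Alternatives used DESeq2 1.42.0, limma 3.58.1, other filters, blocks and left-out libraries. Scripts were tested on simulated data. Gene positions and UTRs are from Gencode M21 (GRCm38), a later release than the authors'; the table's own lengths were used per kb.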

Additional observations from a re-analysis of the deposited data

How the results depend on the processing

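For the 9 genes in 11 comparisons (99 results), 1390 values were recomputed under DESeq2, DESeq2 size factors, no filter, limma-voom with quality weights, the compared groups only, a replicate block and leaving out each library. Of these, 20 lost the call, 46 gained it, 3 reversed and 1321 kept their side of the threshold. Of the 1321, 141 changed sign, with no unadjusted p under 0.05 in either fit, and were not counted as reversed. DESeq2 gave no adjusted p for Cfb in any of the 11, and those values are left out. In the 3 genotype comparisons at rest Cfb had 11 alternatives where the other genes had 13, so a further value is absent there. The 3 reversals are Cfb in resting KO against WT: −0.17 with limma-voom with quality weights, and −0.14 without both the third resting KO and the third resting 3′F library, a choice made after seeing the data; leaving out 1 library at a time gave −0.17 to 7.65. The cause was not tested.

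Counts of the 9 genes called moved as follows. With the compared groups only they were 1 for the LPS response in KO (3 in the main fit), 0 for KO against WT and KO against 3′F at rest (2 each), and 1 and 6 for the same after LPS (0 each). With limma-voom with quality weights they were 4 and 4 at rest and 5 and 5 after LPS, and with DESeq2 1 and 1 after LPS. Without both of the libraries named above KO against WT at rest gave 4. Leaving out 1 library gave 1 to 3 for each of the resting comparisons of KO, with 1 without any single WT or any single 3′F resting library, respectively. Beyond the 9, the complement list's calls were 3 to 6 (LPS in WT, 6), 2 to 5 (KO against WT at rest, 4) and 1 to 2 (after LPS, 3) without 1 library; the low ends came without stimulated WT replicate 1 or 3 or resting WT replicate 2, without resting WT replicate 1 or 2, and without stimulated WT replicate 1 or 3 or stimulated KO replicate 1 or 2. They were 2 and 5 for the last pair with the compared groups only, and 8 after LPS with limma-voom with quality weights.

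With the replicate number as a replicate block over all libraries, KO against WT and KO against 3′F at rest each gave 1 call, and the LPS response in KO gained C3 (1.26, adjusted p = 0.0355). With a replicate block of animal within genotype C3 was 1.47 and was also called (adjusted p = 0.0151). Same-numbered libraries of 1 genotype deviated together with r of −0.03 to 0.40, over 0.1 in 5 of 9 pairs, so the numbers were not shown to pair the libraries.

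Resting Cfb was at or under 3 counts, which are 0.164 to 0.702 CPM in these libraries, in all resting libraries except the third KO library (58 counts, 6.51 CPM).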
